A study of Homo sapiens with 6 samples.

Results

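The genes described are 10 components of the machinery that makes pseudouridine in RNA. They are DKC1, NHP2, NOP10 and GAR1, the 4 core proteins of box H/ACA ribonucleoproteins, and PUS1, PUS3, PUS7, PUS10, TRUB1 and TRUB2, which are synthases that need no guide RNA. They were taken by name: a probe set counted where the platform annotation gave it 1 of these symbols and no other. That gave 149 of the 1411399 probe sets on the array, and all 10 genes were among the 17841 genes measured. Of the 149 probe sets, 134 lay above the level filter and were used, between 5 for NOP10 and 23 for PUS7.

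Pseudouridine is an isomer of uridine in which the base is joined to the sugar through carbon, and it is among the most abundant modified nucleotides of ribosomal RNA, transfer RNA and spliceosomal RNA. In ribosomal and spliceosomal RNA the site is chosen by a box H/ACA guide RNA, and DKC1 (dyskerin) is the catalytic subunit, held with NHP2, NOP10 and GAR1. The same proteins bind the H/ACA domain of telomerase RNA, and mutations in DKC1, NHP2 or NOP10 cause dyskeratosis congenita, a disorder of short telomeres. The stand-alone enzymes find their sites from the sequence and fold of the RNA itself. Bacterial and yeast pseudouridine synthases are also known to be trapped by RNA that holds 5-fluorouridine, which cells make from 5FU.

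The arrays held RNA from HCT116, an established human colorectal carcinoma line titled +/+ without a named gene, on Affymetrix Human Exon 1.0 ST arrays. There were 2 arrays of cells given Nutlin-3, which blocks the binding of MDM2 to p53 (the titles write Nutlin 3R), 2 of cells given 5-fluorouracil (5FU), a pyrimidine analogue, and 2 controls, listed as untreated in the sample labels and as DMSO in the series' design. Treatment lasted 12 h, and no dose is stated for either drug. All groups come from 1 cell line, and nothing in the labels says that replicates were separate cultures, so p-values measure the spread between these arrays, which may be technical.

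A gene's value is the mean of its used probe sets on the deposited log2 scale, on which a difference of 1 is a doubling. CDKN1A, the cell-cycle inhibitor p21, rose by 2.10 after Nutlin-3 (limma, Benjamini-Hochberg adjusted p = 0.00308) and by 1.78 after 5FU (adjusted p = 0.00751) against control, and MDM2 rose by 1.86 (adjusted p = 0.0099) and 1.57 (adjusted p = 0.0283). Among markers of colonic epithelium KRT8 ran from 11.14 to 11.31 over the 6 arrays and KRT18 from 10.94 to 11.12, while EPCAM had the widest range of the 8, with 9.04 and 9.19 after Nutlin-3, 9.46 and 9.70 after 5FU and 9.87 and 9.11 in control. None of 8 epithelial, 6 fibroblast or 3 blood markers measured was called in any comparison by limma; at an unadjusted p below 0.05 the blood marker HBB alone passed, in both Nutlin-3 comparisons. CDH1 ran from 7.61 to 8.07 and CDX2 from 7.63 to 7.89, while KRT20 (5.52 to 5.89), CDH17 (5.05 to 5.55) and VIL1 (5.71 to 5.85) lay lower. Fibroblast markers ran from DCN (5.68 to 6.02) up to COL1A1 (7.21 to 7.6). Blood markers ran from PTPRC (6.18 to 6.67) up to HBB (6.61 to 7.29), so the lists overlapped in level. The deposited values carry no detection call, so absence of a marker cannot be read from them.

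No pseudouridine gene passed the test in any comparison. In limma's fit over 17841 genes, with an adjusted p below 0.05 as the threshold, 0 of 10 were called for Nutlin-3 against control, where 1.22% of all genes were called (0.359% higher and 0.858% lower). For 5FU against control 0 of 10 were called, with 0.448% of all genes (0.331% higher and 0.118% lower), and for Nutlin-3 against 5FU 0 of 10, with 0.633% of all genes (0.0617% higher and 0.572% lower). At an unadjusted p below 0.05 there were 1, 0 and 1 of the 10 (DKC1 both times), where all genes gave 10.2%, 10.7% and 13.3%. A count of 0 among 10 genes lies near these backgrounds and shows no difference from them. Of the 134 single probe sets, limma likewise called 0 in each comparison, where it called 0%, 0% and 0.00142% of 705699 probe sets. At an unadjusted p below 0.05 in limma they numbered 4, 6 and 6, or 2.99%, 4.48% and 4.48% of the 134. The shares of the 705699 were 6.14%, 6.27% and 7.39%. Those 705699 are all probe sets above the level filter, with or without a gene symbol.

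The replicates of these genes differed in a shared direction. All 10 were higher on Nutlin-3 array 2 than on Nutlin-3 array 1, and all 10 were higher on 5FU array 2 than on 5FU array 1, while 8 of 10 were higher on control array 1 than on control array 2. Over all genes the shares were 59.5%, 60.5% and 52.8%. The gap between the control arrays was widest for PUS7 at 0.91, a gap larger than that of 98.4% of all genes, followed by GAR1 at 0.81 and PUS10 at 0.65, and it was narrowest for NOP10 and PUS1 at 0.06 each. Of the used member probe sets, 24 had a mean up to 6.45, the 75th percentile of all probe sets. Their median gap between replicates was 0.47 for Nutlin-3, 0.40 for 5FU and 0.80 for control. Over all probe sets of that range above the level filter, with or without a gene symbol, it was 0.39, 0.34 and 0.38. Among the 110 brighter member probe sets it was 0.30, 0.28 and 0.32, beside 0.28, 0.23 and 0.27 over all brighter probe sets. Fits that block on replicates or leave out 1 array are given in the last section. The cause of these replicate differences was not tested.

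**Figure D1:**
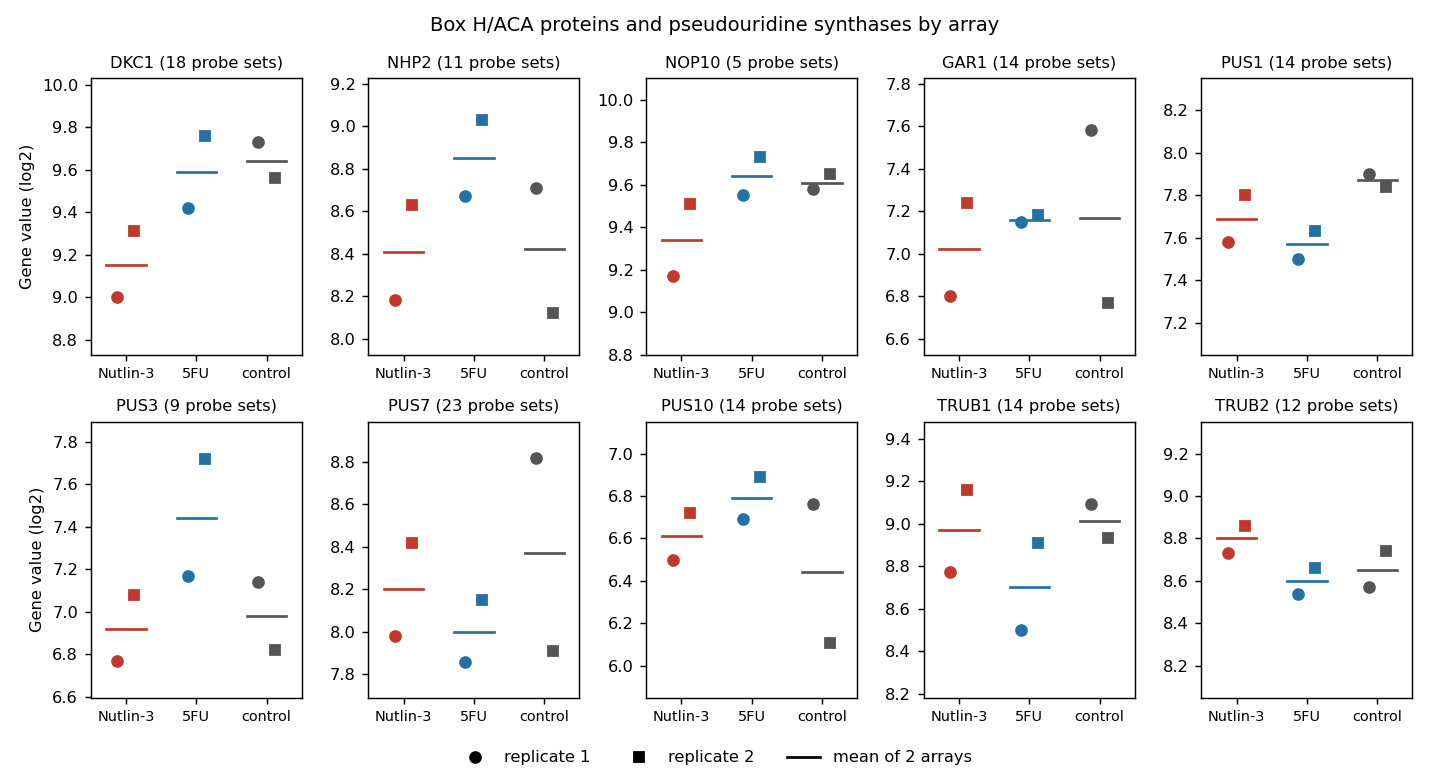
Gene values (log2, mean of the used probe sets) of the 10 genes on each array, with 1 panel per gene; circles are replicate 1, squares replicate 2 and lines the mean of 2 arrays, and each panel spans the same height on its own log2 range. DKC1 shows both Nutlin-3 arrays (9.0 and 9.31) below both 5FU arrays and both control arrays, while PUS7 and GAR1 show control arrays further apart than the group means.

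DKC1 was the gene with the lowest unadjusted p against control. It measured 9.0 and 9.31 on the Nutlin-3 arrays, 9.42 and 9.76 on the 5FU arrays and 9.73 and 9.56 on the control arrays. Both Nutlin-3 arrays lay below all the others, and the 5FU and control arrays overlapped. The means were 9.15 ± 0.21 for Nutlin-3, 9.59 ± 0.24 for 5FU and 9.64 ± 0.11 for control (SD, n = 2 each). Nutlin-3 differed from control by -0.49 (95% interval -0.91 to -0.07, limma adjusted p = 0.392), which is 1.40-fold lower and not past the threshold. 5FU differed from control by -0.06 (-0.48 to 0.36, adjusted p = 0.973). In RNA from whole cultures a loss of transcript per cell and a loss of the cells that carry it cannot be told apart.

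The probe sets of DKC1 mostly lay on one side. Of 18 used probe sets, 16 had a lower mean in Nutlin-3 than in control. The differences of the 18 ran between -0.88 and 0.07, with a median of -0.51. The 2 probe sets with higher means were the first 2 in order of number. For 5FU against control 10 of 18 were lower, with a range of -0.34 to 0.12. Probe sets of 1 gene read the same RNA and are not replicates. Without any single array the difference of Nutlin-3 from control stayed between -0.64 and -0.34. DKC1 lies on chromosome X, and RefSeq (GRCh38.p14) places SNORA36A and SNORA56, themselves box H/ACA guide RNAs, and the microRNA gene MIR664B inside it; none of these has a gene value here.

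The promoters of DKC1 and NOP10 are shown because these were the H/ACA genes with both Nutlin-3 arrays below both controls, and that of PUS3 because it was the 1 gene with both 5FU arrays above both controls. Each is the 250 bases before the annotated start in RefSeq (GRCh38.p14), 5′ to 3′ on the strand of the gene, and 9 of the 10 genes matched an entry in that table, with 14 windows in all. Capitals mark the E-box CACGTG, to which MYC and related factors bind, the 10-letter NRF1 motif, whose letters are the capitals in the DKC1 window, both the same on either strand, and the ETS motif CCGGAAGT or its reverse complement ACTTCCGG; no 2 matches overlap.
DKC1, chrX:154762614-154762863, plus strand: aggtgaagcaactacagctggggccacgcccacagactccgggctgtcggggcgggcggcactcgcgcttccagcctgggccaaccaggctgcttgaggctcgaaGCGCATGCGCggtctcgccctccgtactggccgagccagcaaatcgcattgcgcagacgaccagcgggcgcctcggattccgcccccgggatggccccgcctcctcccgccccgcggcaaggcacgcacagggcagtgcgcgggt
NOP10, chr15:34343137-34343386, minus strand: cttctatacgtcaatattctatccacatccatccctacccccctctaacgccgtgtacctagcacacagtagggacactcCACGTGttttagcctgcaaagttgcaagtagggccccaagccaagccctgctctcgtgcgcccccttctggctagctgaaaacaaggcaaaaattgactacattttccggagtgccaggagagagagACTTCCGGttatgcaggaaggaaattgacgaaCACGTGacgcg
PUS3, chr11:125903207-125903456, minus strand: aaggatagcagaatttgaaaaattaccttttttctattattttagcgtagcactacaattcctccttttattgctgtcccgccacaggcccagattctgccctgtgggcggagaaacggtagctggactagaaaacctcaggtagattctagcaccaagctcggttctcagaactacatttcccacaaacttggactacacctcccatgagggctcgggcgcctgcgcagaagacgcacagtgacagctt
The NRF1 motif began 145 bases before the start of DKC1, and 1.03% of 35116 windows of the same length hold it. NOP10 had an E-box beginning 170 and another 11 bases before its start, with an ETS motif beginning 43 bases before it; E-boxes occur in 6.34% of windows and the ETS motif in 3.42%. Of the 9 genes, 1 had an E-box (NOP10), 1 the NRF1 motif (DKC1) and 2 the ETS motif (GAR1 and NOP10). PUS3 held none of these letters in its window. Such matches describe the sequence and do not show binding.

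NOP10, a very small protein that bridges DKC1 and NHP2, measured 9.17 and 9.51 on the Nutlin-3 arrays, 9.55 and 9.73 on the 5FU arrays and 9.58 and 9.65 on the control arrays. Both Nutlin-3 arrays were the lowest of the 6, with array 2 just under the nearest control and 5FU values. The difference of Nutlin-3 from control was -0.28 (-0.66 to 0.11, adjusted p = 0.693), and 4 of its 5 probe sets were lower, between -0.54 and 0.01. That of 5FU from control was 0.03 (-0.36 to 0.41, adjusted p = 0.99). Neither passed the threshold. NUTM1 starts close to it on the other strand and differed by -0.02 for Nutlin-3 and -0.08 for 5FU against control.

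GAR1, the subunit that joins the complex last in place of the assembly factor NAF1, measured 6.80 and 7.24 after Nutlin-3, 7.15 and 7.18 after 5FU and 7.58 and 6.77 in control. The groups overlapped, and the control arrays enclosed every 5FU and Nutlin-3 value. Nutlin-3 differed from control by -0.15 (-0.80 to 0.50, adjusted p = 0.942) and 5FU by -0.01 (-0.66 to 0.64, adjusted p = 0.996). Without control array 1 the differences were 0.26 and 0.40, and without control array 2 they were -0.56 and -0.42. The sign also turned for Nutlin-3 without Nutlin-3 array 1 (0.07) and for 5FU without 5FU array 1 (0.0049). Of its 14 probe sets, 9 were lower after Nutlin-3 and 6 after 5FU.

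NHP2, an RNA-binding protein of the complex, measured 8.18 and 8.63 after Nutlin-3, 8.67 and 9.03 after 5FU and 8.71 and 8.12 in control. The 5FU arrays were high, but control array 1 exceeded the lower of them. 5FU differed from control by 0.43 (-0.17 to 1.03, adjusted p = 0.664), with all 11 probe sets higher, between 0.05 and 1.07, and Nutlin-3 differed by -0.01 (-0.61 to 0.59, adjusted p = 0.997). Without control array 2 the 5FU difference was 0.13 and without control array 1 it was 0.73. RefSeq lists the pseudogenes NHP2P1 on chromosome 10 and NHP2P2 on chromosome 7, and the NHP2 probe sets carry numbers in 3 separate runs, of 6, 1 and 4, so signal may be shared with such copies and NHP2 is uncertain to that extent. Over the other genes probe-set numbers rise in chromosome order. The runs of 1 and 4 lie where chromosomes 7 and 10 could fall, but probe positions were not checked. For 5FU against control the runs averaged 0.47, 1.07 and 0.22, and for Nutlin-3 against control -0.05, 0.55 and -0.09. RMND5B, which overlaps NHP2 on the other strand, differed by 0.13 in both.

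**Figure D2:**
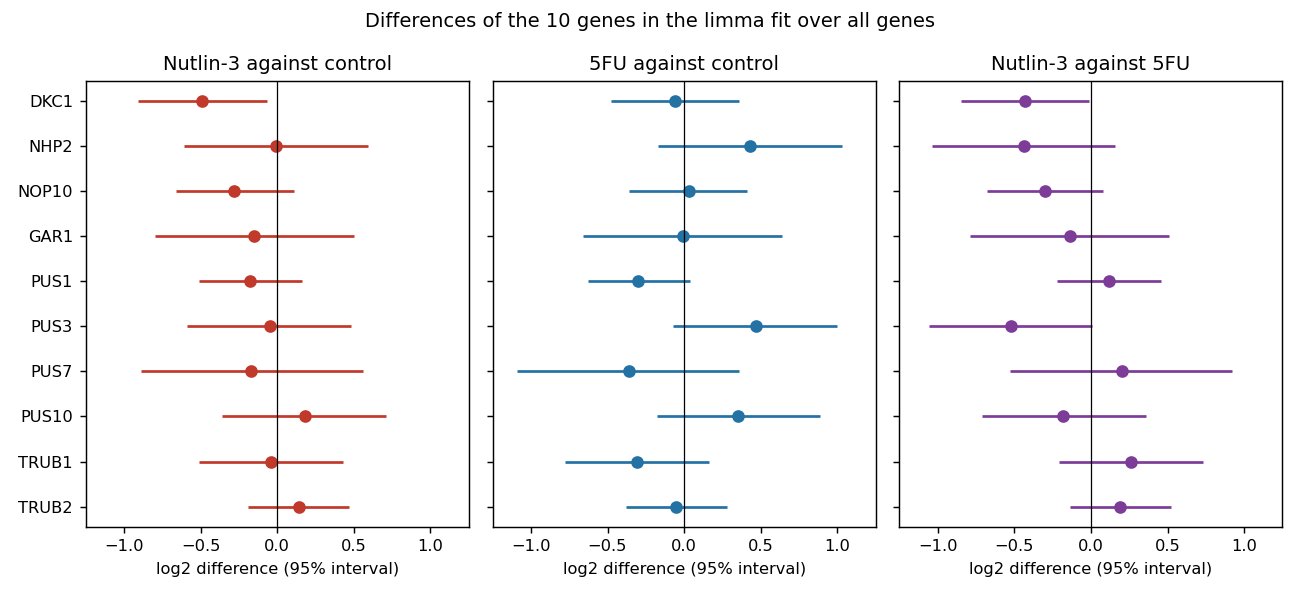
Differences in gene value (log2, points) with 95% intervals from limma (lines) for the 10 genes, in 1 panel per comparison, where values below 0 mean lower in the first-named group. The interval of DKC1 lies below 0 for Nutlin-3 against control (-0.91 to -0.07) and for Nutlin-3 against 5FU (-0.85 to -0.01) before adjustment over all genes, and every other interval drawn includes 0.

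Among the stand-alone enzymes, PUS1 and TRUB1 had both 5FU arrays below both controls. PUS1, which modifies nuclear and mitochondrial transfer RNA and whose loss causes a myopathy with sideroblastic anaemia, measured 7.58 and 7.80 after Nutlin-3, 7.50 and 7.63 after 5FU and 7.90 and 7.84 in control. All 4 drug arrays were below both controls. The difference was -0.30 for 5FU (-0.63 to 0.04, adjusted p = 0.542) and -0.18 for Nutlin-3 (-0.51 to 0.16, adjusted p = 0.811). Of 14 probe sets, 11 were lower after 5FU, from -0.98 to 0.45 over all 14, and 10 after Nutlin-3. Leaving out 1 array kept the 5FU difference between -0.36 and -0.23 and the Nutlin-3 difference between -0.29 and -0.07.

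TRUB1, the human counterpart of yeast Pus4, which modifies the T loop of transfer RNA, measured 8.77 and 9.16 after Nutlin-3, 8.50 and 8.91 after 5FU and 9.09 and 8.93 in control. The 5FU arrays were below both controls, the upper one only narrowly, while the Nutlin-3 arrays enclosed both controls. The differences were -0.31 for 5FU (-0.78 to 0.16, adjusted p = 0.706), with 13 of 14 probe sets lower, and -0.04 for Nutlin-3 (-0.51 to 0.43, adjusted p = 0.981), with 8 of 14 lower. Without 5FU array 1 the 5FU difference was -0.10, and without 5FU array 2 it was -0.51.

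PUS3, which acts on the anticodon arm of transfer RNA, was the 1 gene with both 5FU arrays above both controls. It measured 6.77 and 7.08 after Nutlin-3, 7.17 and 7.72 after 5FU and 7.14 and 6.82 in control. The lower 5FU array stood just above control array 1. The 5FU difference was 0.47 (-0.07 to 1.00, adjusted p = 0.549), a 1.38-fold higher mean, with all 9 used probe sets higher, between 0.18 and 0.77. Nutlin-3 differed by -0.05 (-0.59 to 0.48, adjusted p = 0.981). Without 5FU array 2 the 5FU difference was 0.19, and without 5FU array 1 it was 0.75. On the other strand HYLS1, a centriole gene, overlaps PUS3, and DDX25 starts close to it. HYLS1 measured 6.23 and 6.78 after Nutlin-3, 6.38 and 7.01 after 5FU and 7.42 and 7.47 in control. It differed from control by -0.94 for Nutlin-3 (adjusted p = 0.21) and -0.75 for 5FU (adjusted p = 0.353), and its 5FU difference was opposite in sign to PUS3. DDX25 differed by 0.14 and -0.02.

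**Figure D3:**
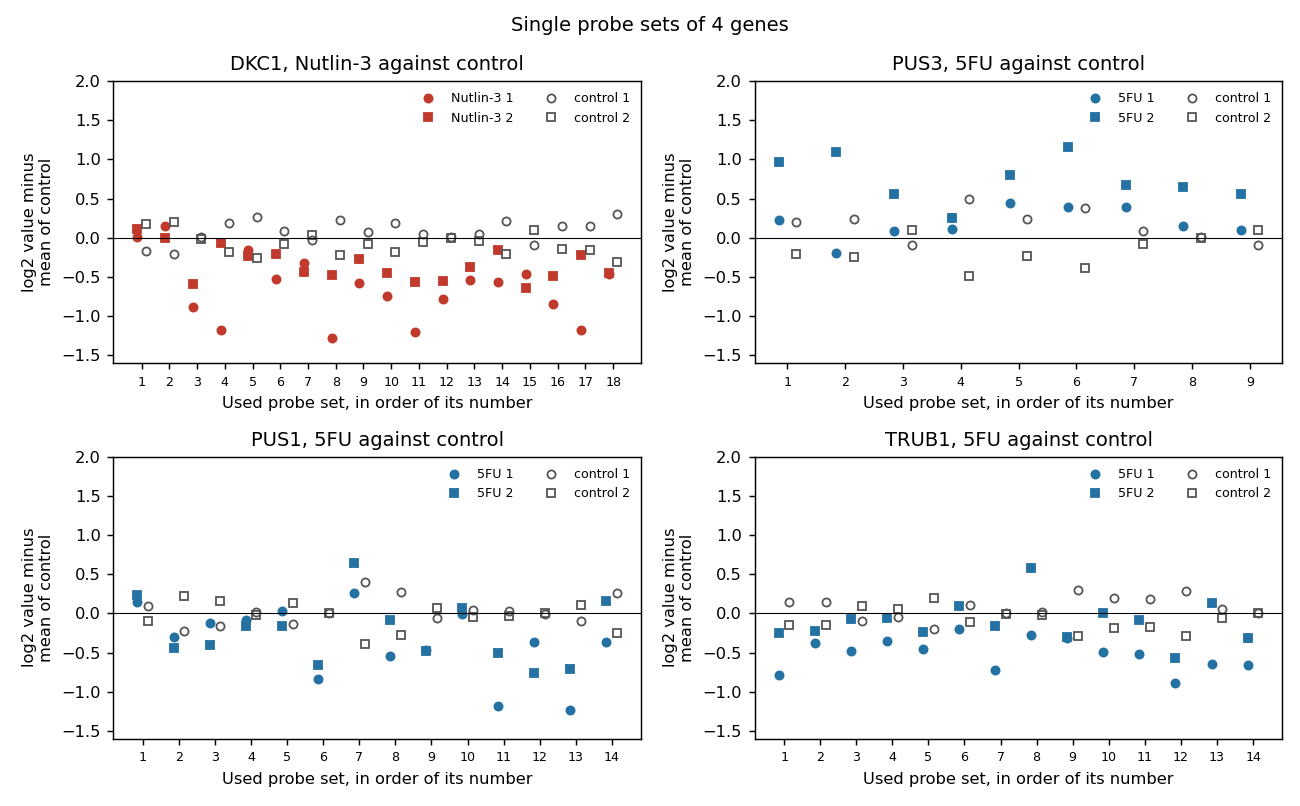
Single used probe sets of DKC1 (Nutlin-3 against control) and of PUS3, PUS1 and TRUB1 (5FU against control), as log2 value minus the mean of the 2 control arrays, in order of probe-set number; filled symbols are drug arrays, open symbols control arrays, circles replicate 1 and squares replicate 2. DKC1 has 16 of 18 probe-set means below 0, PUS3 has 9 of 9 above 0, PUS1 has 11 of 14 below 0 and TRUB1 has 13 of 14 below 0.

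PUS7, which modifies transfer RNA and messenger RNA, measured 7.98 and 8.42 after Nutlin-3, 7.86 and 8.15 after 5FU and 8.82 and 7.91 in control. Control array 1 stood above every other array, and control array 2 lay among the drug arrays. The differences were -0.36 for 5FU (-1.09 to 0.36, adjusted p = 0.817) and -0.17 for Nutlin-3 (-0.89 to 0.56, adjusted p = 0.942). Without control array 1 they were 0.09 and 0.29, and without Nutlin-3 array 1 the Nutlin-3 difference was 0.06, so the direction changed with the array left out. In single probe sets, 19 of 23 were lower after 5FU and 18 of 23 after Nutlin-3. RefSeq lists a pseudogene, PUS7P1, on chromosome 9, and sharing of signal with it was not tested.

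PUS10, a transfer RNA synthase of a family of its own, was the gene with the lowest share of its probe sets above the filter, 14 of 25. It measured 6.50 and 6.72 after Nutlin-3, 6.69 and 6.89 after 5FU and 6.76 and 6.11 in control. Control array 2 was the lowest of the 6 arrays, and control array 1 lay among the drug arrays. The differences were 0.35 for 5FU (-0.18 to 0.89, adjusted p = 0.705), with 12 of 14 probe sets higher, and 0.18 for Nutlin-3 (-0.36 to 0.71, adjusted p = 0.902), with 10 of 14 higher. Without control array 2 they were 0.03 and -0.15. PEX13, which overlaps it on the other strand, differed by 0.30 and -0.18.

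TRUB2, a mitochondrial enzyme, measured 8.73 and 8.86 after Nutlin-3, 8.54 and 8.66 after 5FU and 8.57 and 8.74 in control. Both drug groups overlapped control. The differences were 0.14 for Nutlin-3 (-0.19 to 0.47, adjusted p = 0.856) and -0.05 for 5FU (-0.38 to 0.28, adjusted p = 0.967). These intervals leave room for changes of up to 0.47 and 0.38 in size.

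Set directly against each other, the drugs gave no called difference in the H/ACA proteins in the fit without paired arrays, and their means all lay on one side. All 4 had lower values in Nutlin-3 than in 5FU, with a median of -0.37 where the median of all genes was -0.01. In DKC1, NHP2 and NOP10 both Nutlin-3 arrays lay below both 5FU arrays. Over all genes, 9067 of 17841 had lower values. Lists described below shared this side, with 3 of 3 box C/D proteins lower (median -0.38), 6 of 8 assembly factors (-0.27) and 10 of 10 telomerase partners (-0.25). Other ribosomal RNA enzymes had 9 of 11 lower (-0.21) and other transfer RNA enzymes 9 of 16 (-0.05). Of the 6 other pseudouridine synthases 2 were lower (median 0.15). The differences were -0.43 for DKC1 (-0.85 to -0.01, adjusted p = 0.36), -0.44 for NHP2 (-1.04 to 0.16, adjusted p = 0.514), -0.30 for NOP10 (-0.68 to 0.08, adjusted p = 0.488) and -0.14 for GAR1 (-0.79 to 0.51, adjusted p = 0.858). All 11 probe sets of NHP2, all 5 of NOP10, 16 of 18 of DKC1 and 9 of 14 of GAR1 were lower. The NHP2 runs of 6, 1 and 4 probe sets averaged -0.52, -0.52 and -0.31, and those of 1 and 4 may read pseudogenes. The sign of GAR1 depended on its probe sets, with 0.11 over upper-quartile probe sets alone and 0.0076 for the median of probe sets. Among the stand-alone enzymes PUS3 had the largest difference, -0.52 (-1.06 to 0.01, adjusted p = 0.387), with both Nutlin-3 arrays below both 5FU arrays. TRUB1 (0.26, adjusted p = 0.629), PUS7 (0.20, adjusted p = 0.824), TRUB2 (0.19, adjusted p = 0.617) and PUS1 (0.12, adjusted p = 0.76) had higher means in Nutlin-3, and PUS10 a lower one (-0.18, adjusted p = 0.78). In TRUB2 both Nutlin-3 arrays lay above both 5FU arrays.

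The numbers of genes whose groups did not overlap were close to the share of all genes in each comparison: 3 of 10 for Nutlin-3 against control beside 34.2% of all genes, 3 of 10 for 5FU against control beside 38.0%, and 5 of 10 for Nutlin-3 against 5FU beside 46.0%. For Nutlin-3 against control 3 of 10 lay wholly below (DKC1, NOP10 and PUS1) and 0 above, beside 18.0% and 16.2% of all genes. For 5FU against control 2 lay below (PUS1 and TRUB1) and 1 above (PUS3), beside 18.0% and 20.0%. For Nutlin-3 against 5FU 4 lay below (DKC1, NHP2, NOP10 and PUS3) and 1 above (TRUB2), beside 25.2% and 20.8%. Both drugs were compared with the same 2 control arrays, so their differences from control are not independent of each other. For any 1 gene on 2 and 2 arrays, the smallest p that exact permutation (two-sided) allows is 0.333.

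Other genes of RNA modification were counted beside these 10, and limma called 0 of them in each comparison. Over all 17841 genes, 8896 had lower means in Nutlin-3 than in control and 8873 had lower means in 5FU than in control. The lists were chosen with earlier results of these data known, and their genes share the same 6 arrays. A shift of a whole list was not tested. The 6 other pseudouridine synthases had a median of -0.19 for Nutlin-3 and -0.27 for 5FU against control, where all genes had 0.00 in both; 5 of 6 had lower means in each. RPUSD4, which modifies mitochondrial ribosomal RNA, measured 7.63 and 8.03 after Nutlin-3, 7.27 and 7.55 after 5FU and 8.10 and 8.02 in control. Its 5FU arrays were below all others, with a difference of -0.65 (-1.08 to -0.23, adjusted p = 0.252). RPUSD2 differed by -0.36 for 5FU (adjusted p = 0.477) and RPUSD1 by -0.26 for Nutlin-3 (adjusted p = 0.578), each with groups that did not overlap.

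The 8 assembly factors of H/ACA particles all had lower means in Nutlin-3 than in control, beside 8896 of all 17841 genes. Their median was -0.22 for Nutlin-3 and 0.04 for 5FU against control. The largest differences for Nutlin-3 were in RPAP3 (-0.60, adjusted p = 0.663) and NUFIP1 (-0.48, adjusted p = 0.68), subunits and partners of the R2TP chaperone system, and for 5FU in NUFIP1 (-0.62, adjusted p = 0.497) and NAF1 (0.34, adjusted p = 0.886). NOLC1, a nucleolar protein that binds H/ACA particles, reached an unadjusted p of 0.0494 in limma for Nutlin-3, with a difference of -0.46 and an adjusted p of 0.488. Of 10 telomerase and telomere genes that work beside the H/ACA proteins, 8 had lower means after Nutlin-3 (median -0.18) and 3 after 5FU (median 0.05). ACD, the shelterin protein that recruits telomerase, measured 6.91 and 7.01 after Nutlin-3, 7.54 and 7.56 after 5FU and 7.43 and 7.51 in control, so that its Nutlin-3 arrays were the lowest. It differed by -0.51 from control (-0.81 to -0.20, adjusted p = 0.168) and by -0.59 from 5FU (-0.89 to -0.28, adjusted p = 0.119). WRAP53, which leads H/ACA RNAs to Cajal bodies, differed by -0.43 for Nutlin-3 (adjusted p = 0.295); it overlaps another gene, and sharing of signal with it was not tested. For 5FU the largest differences were in TGS1, a cap methyltransferase (0.59, adjusted p = 0.402), and TERF2IP of shelterin (0.56, adjusted p = 0.287).

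The sister class of box C/D proteins, part of the particles that carry out 2′-O-methylation, had 3 members measured (FBL, NOP56 and SNU13) and 1, NOP58, without a gene value. All 3 had both Nutlin-3 arrays below both control arrays, beside 18.0% of all genes, and below both 5FU arrays, beside 25.2%. None of the 3 was called. Their median was -0.35 for Nutlin-3 against control, with SNU13 at -0.45 (adjusted p = 0.548) and NOP56 at -0.35 (adjusted p = 0.4), and 0.02 for 5FU, with FBL at -0.12 (adjusted p = 0.883) and NOP56 at 0.03 (adjusted p = 0.987). Among 11 other enzymes of ribosomal RNA, 10 had lower means after Nutlin-3 (median -0.18) and 4 after 5FU (median 0.13). Over all 17841 genes these numbers were 8896 and 8873. EMG1, which methylates a pseudouridine of the small ribosomal subunit, differed by -0.55 for Nutlin-3 (-0.97 to -0.13, adjusted p = 0.309), and THUMPD1 by -0.52 (adjusted p = 0.575). DIMT1, an adenosine dimethylase of ribosomal RNA, had the largest 5FU difference of these lists: it measured 7.09 and 7.40 after 5FU and 8.41 and 7.87 in control, a difference of -0.90 (-1.44 to -0.36, adjusted p = 0.216), and ZCCHC4 differed by 0.40 (adjusted p = 0.783). Of 16 other transfer RNA enzymes, 14 had lower means after Nutlin-3 (median -0.13) and 9 after 5FU (median -0.17), led by ADAT1 (-0.43, adjusted p = 0.571) and TRMT5 (-0.34, adjusted p = 0.743) for Nutlin-3 and by NSUN2 (-0.44, adjusted p = 0.564) and DUS2 (-0.32, adjusted p = 0.615) for 5FU.

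**Figure D4:**
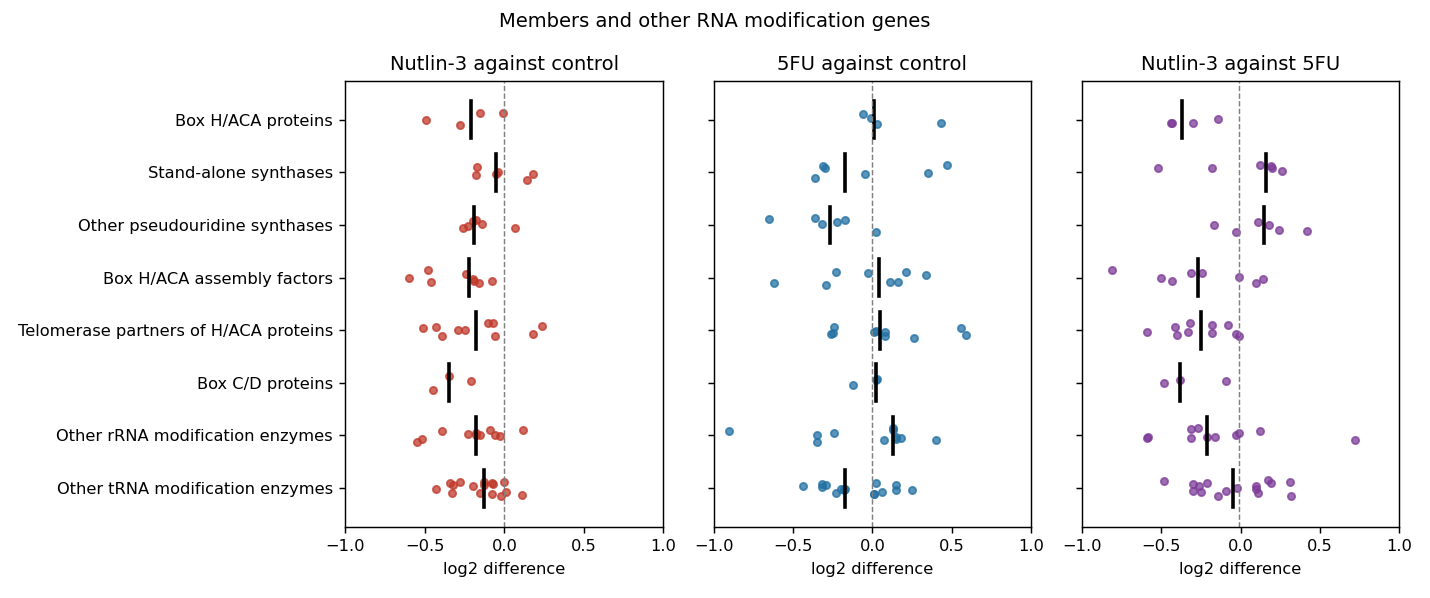
Differences in gene value (log2, 1 point per gene) for the 4 H/ACA proteins, the 6 stand-alone synthases and 6 other lists of RNA modification genes, in 1 panel per comparison; black bars are list medians, the dashed line is the median of all genes, and points are spread vertically for sight only. For Nutlin-3 against control the H/ACA proteins have a median of -0.21 and the stand-alone synthases -0.05, and for 5FU against control 0.01 and -0.17.

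The genes with the most similar course were found by the distance between their 6 array values, each gene centred on its own mean, among 16865 genes with at least 3 used probe sets. DKC1 was closest to EIF4A3, an RNA helicase of the exon junction complex, at a distance of 0.0735 log2 units, beside 0.635 between DKC1 and a flat line; EIF4A3 differed by -0.54 for Nutlin-3 and -0.07 for 5FU against control. ZRANB1 and SLC31A1, a copper transporter, followed at 0.0831 each. NOP10 was closest to PA2G4 (0.0787), which differed by -0.26 for Nutlin-3 and 0.04 for 5FU. PUS1 was closest to ELAC2 (0.0629), which cuts the 3′ end of transfer RNA precursors. PIH1D1 (0.0711) of the H/ACA assembly list and PDXK (0.0723) followed. For members other than DKC1 and PUS1 only the nearest gene is given. PUS3 was closest to RNF125 (0.112) and NHP2 to BNIP1 (0.0939), both with 5FU differences near those of their partners, 0.53 and 0.48. The remaining nearest genes were FNIP1 for GAR1 (0.0938), UBE2J1 for PUS7 (0.138), MREG for PUS10 (0.0469), EXD2 for TRUB1 (0.0502) and PEPD for TRUB2 (0.0432). These distances include the replicate differences that the 6 arrays share, and are descriptions over 6 arrays only.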

How the data were processed

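RNA from 6 arrays (3 groups of 2) was analysed. The authors deposited 1 log2 value for each probe set, made with RMA per the submitters' processing notes; its settings and a genome build are not stated there, and array medians lay between 4.73 and 4.78. The number of arrays limits the precision. Correlations between arrays across genes were 0.92 to 0.981.

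Names came from the platform annotation, with older symbols updated through RefSeq synonyms (no member needed it). A gene's value was the mean of its used probe sets, those averaging above 4.73, the median probe set, and at least 2 were required. The 3 groups were fitted together with limma 3.58.1 (lmFit, eBayes, 3 residual degrees of freedom) in R 4.3.3, with Benjamini-Hochberg adjustment over 17841 genes, or 705699 probe sets. The code was tested on simulated data for Nutlin-3 against control, with noise independent between genes and arrays. That test does not cover replicate differences shared across genes, as seen here. All 10 members are named in every comparison; of each further list, called genes or otherwise the 2 largest differences, and the 3 nearest profiles of each member (the first is printed for all, others for some). NOLC1 is named besides, chosen after its values were seen. Neighbouring genes and positions come from RefSeq (GRCh38.p14). Members and lists were chosen with earlier results of these data known. Replicate numbers were checked for pairing by the correlation across genes of the difference between replicates 1 and 2, which was -0.565 for Nutlin-3 and control, -0.525 for 5FU and control and 0.634 for Nutlin-3 and 5FU. Equal numbers thus went together between the drugs and opposite ways against control; no label ties them to a shared culture or day, and the samples were not treated as paired. Alternatives were other probe-set filters, the median of probe sets, other variances, centring, a replicate block and leaving out each array.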

Additional observations from a re-analysis of the deposited data

How the results depend on the processing

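Under 6 other settings (the replicate block among them), and with each of the 6 arrays left out, limma called 0 of the 10 genes in each comparison, and the lowest adjusted p among 360 values was 0.245. The replicate number as a block gave 2 called genes when Nutlin-3 was set against control, 1 when 5FU was set against control and 0 when Nutlin-3 was set against 5FU, where the fit without it gave 217, 80 and 113, and no pseudouridine gene in any; 1821, 1915 and 2377 genes had an unadjusted p below 0.05 without the block. A crossed pairing as a block (control 1 with the drugs' array 2, and control 2 with their array 1), chosen from these replicate differences themselves, gave 1788, 1882 and 2821 of 17841 genes and called 1 (DKC1), 2 (NHP2 and PUS3) and 3 (DKC1, NHP2 and PUS3) of the 10. Upper-quartile probe sets alone gave 380, 151 and 234, arrays centred on their medians 127, 14 and 37, and arrays centred on the median of their gene values, also added after seeing the data, 381, 177 and 297. For 5FU against control the median of probe sets gave 39; for Nutlin-3 against 5FU it gave 69, as did all probe sets of a gene. Leaving out 1 array gave 5 to 149, 1 to 63 and 3 to 104 genes, with the lowest counts without control array 1 for Nutlin-3 against control (5), without either 5FU array for 5FU against control (1) and without 5FU array 2 for the drugs against each other (3). Without Nutlin-3 array 1 the Nutlin-3 comparisons gave 31 and 9, and without control arrays 1 and 2 in turn 5FU against control gave 3 and 4.

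Of 240 member values under alternatives that keep all arrays, 5 changed sign: GAR1 with upper-quartile probe sets (0.00052 for Nutlin-3 against control and 0.11 for Nutlin-3 against 5FU), and with the median of probe sets GAR1 (0.0076) and TRUB1 (-0.03) for Nutlin-3 against 5FU and PUS3 (0.0093) for Nutlin-3 against control. All 5 changes came from the choice or summary of probe sets. Other variances, the replicate block and the crossed pairing leave each difference unchanged by design, so no sign could turn under them. Centring shifts all genes of a comparison by the same amount. Leaving out 1 array turned the sign in 13 of 30 member results. For Nutlin-3 against control the ranges were -0.31 to 0.29 for NHP2, -0.56 to 0.26 for GAR1, -0.22 to 0.11 for PUS3, -0.62 to 0.29 for PUS7, -0.15 to 0.50 for PUS10 and -0.24 to 0.15 for TRUB1. For 5FU against control they were -0.22 to 0.11 for DKC1, -0.07 to 0.12 for NOP10, -0.42 to 0.40 for GAR1, -0.82 to 0.09 for PUS7 and -0.13 to 0.03 for TRUB2. For Nutlin-3 against 5FU they were -0.36 to 0.08 for GAR1 and -0.03 to 0.42 for PUS7. The cause was not tested. A group left with 1 array was assumed to vary like the others. Signal over background could not be assessed from the deposited values.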
